A study of Mus musculus with 7 samples.

Results

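Transcripts of the cytosolic aminoacyl-tRNA synthetases and of the ATF4 stress response were examined in mouse CD8+ T cells that had been exposed to small extracellular vesicles (sEVs). The 40 genes were taken from a list written by name: 20 synthetase genes, the scaffold genes Aimp1 and Aimp2, and 18 genes of the ATF4 response. Of these, 39 were found among the 55367 genes with counts, and all 39 were among the 12623 genes expressed highly enough to be tested. Mars, which encodes methionyl-tRNA synthetase, was not analysed here. The CD8+ T cells were sorted from spleens of the Foxp3 YFP/cre strain, in which regulatory T cells carry a fluorescent reporter and Cre, and all were treated for 48 h. In 4 libraries the cells had received HCME-sEVs, vesicles of the healthy spleen, and in 3 libraries LME-sEVs, vesicles of the leukemic spleen of Eμ-TCL1 mice, in which a TCL1 transgene is driven in B cells. The labels give 100 µg/ml of sEVs for both groups, whereas the study's methods describe the amount found in each kind of spleen, and the methods place the cells on anti-CD3 with CD28 stimulation and IL2. Group sizes follow the labels; a figure legend of the study gives them the other way round. The labels do not say whether libraries came from separate animals or cultures, so the p-values measure the spread between these libraries, which may be technical.

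Aminoacyl-tRNA synthetases load each tRNA with its amino acid, the step that links the genetic code to protein synthesis. Several of them sit in a multisynthetase complex held together by Aimp1, Aimp2 and Eef1e1. When amino acids are short or unfolded protein builds up, kinases phosphorylate the alpha subunit of initiation factor eIF2. Most translation is then reduced, while the mRNA of the transcription factor ATF4 is translated better. ATF4, with partners of the C/EBP family, switches on genes for amino acid synthesis, amino acid transport and tRNA charging. Activated CD8+ T cells, which grow and divide quickly, have a high demand for charged tRNA. Because ATF4 is controlled largely at translation, its mRNA level is not a measure of its protein.

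ATF4 binds DNA at a composite C/EBP-ATF element, so the promoters of the genes were searched for the letters TGATGNAA on both strands. RefSeq windows on GRCm38.p6, from 250 bases before to 50 bases after the start site, were at hand for 31 of the 39 genes. Cars, Hars, Lars, Nars, Rars, Vars, Wars and Cth had no window and were not searched. The letters were found in 7 of 17 ATF4 response genes (41.2%: Atf3, Trib3, Chac1, Asns, Nupr1, Vldlr and Pycr1) and in 5 of 12 synthetase genes (41.7%: Aars, Gars, Iars, Tars and Yars). Neither of the 2 scaffold genes held them, and 1219 of all 27025 genes with such a window did (4.51%). The E-box CACGTG, which can share its last TG with those letters and is bound by MYC among other factors, was found in 4 of the 12 synthetase genes (33.3%: Aars, Farsb, Iars and Tars), in 3 of the 17 ATF4 response genes (17.6%) and in 8.09% of all genes. A match describes the letters in this window and does not show that a factor binds there. The stretches around the match are printed for the 4 genes with the smallest FDR among the genes of the list that changed and held it, because they include genes that fell and a gene that rose. They are read 5′ to 3′ on the strand of the gene, which is the minus strand in all 4, and capitals mark the match.
Atf3, chr1:191183396-191183483: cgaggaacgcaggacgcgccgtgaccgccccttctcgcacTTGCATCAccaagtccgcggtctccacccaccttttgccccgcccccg
Tars, chr15:11399629-11399713: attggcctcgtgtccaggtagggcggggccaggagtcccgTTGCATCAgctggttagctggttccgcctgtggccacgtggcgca
Trib3, chr2:152344031-152344086: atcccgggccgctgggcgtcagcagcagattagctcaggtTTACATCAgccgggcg
Pycr1, chr11:120643804-120643891: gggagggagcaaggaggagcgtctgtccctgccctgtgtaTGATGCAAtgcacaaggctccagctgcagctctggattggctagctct
In Atf3 the match began 110 bases before the start site (position -110), in Tars at -15, in Pycr1 at -103 and in Trib3 at 14, past the start site. The start site is the one of the RefSeq window. For some genes, Atf3 and Nupr1 among them, the window lies inside the annotated gene, and their outermost start site was not searched. The stretch of Tars also holds the E-box, left in lower case. Of the 12 genes with a match, Atf3, Trib3, Nupr1 and Tars fell with LME-sEVs, Pycr1 rose and the other 7 did not pass the test. Cars, Hars and Rars, which also fell, were among the genes not searched.

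Expression was read from the 3′ ends of polyadenylated transcripts, with molecular identifiers so that copies made by PCR count once. Libraries held between 3689831 and 5030522 counts. Levels are given as CPM, counts scaled to a common library size after TMM normalization (factors between 0.965 and 1.03). A floor of 3 counts, below which no level is read, equals 0.582 to 0.807 CPM. Libraries of the same group differed by more than sampling noise (chi-square per degree of freedom 2.12 to 6.13). The FDR is the Benjamini-Hochberg adjusted p of edgeR's quasi-likelihood test over all 12623 genes, and a gene was called changed at an FDR under 0.05. Of all genes, 658 were lower (5.21%) and 473 higher (3.75%) with LME-sEVs, and the median log2 fold change was 0.01. T-cell markers were present in every library, with a summed level of 2005 to 2209 CPM with HCME-sEVs and 2260 to 2546 CPM with LME-sEVs; of the 7, Cd3e and Cd3g were called higher. Cd4 reached at most 3 counts. The sum over 7 B-cell markers was 231 to 274 CPM against 310 to 334 CPM, nearly all of it Ighm (called higher), while Cd79a stayed at or below 2 counts. The 6 myeloid markers summed to 0.533 to 2.65 CPM against 3.60 to 5.38 CPM, with none tested. The 6 basophil and mast cell markers summed to 5.54 to 31.7 CPM against 21.1 to 39.3 CPM, with Mcpt8 and Prg2 called higher, the 5 erythroid markers to 33.1 to 42.4 against 33.7 to 49.2 CPM, with Hba-a1 called higher, and the 2 NK markers to 0.466 to 1.93 against 0.225 to 0.538 CPM. The myeloid and NK sums rest on genes with few counts, many below the floor, and are not read as levels. Among the myeloid markers, Itgam had 0, 0, 0 and 1 counts with HCME-sEVs and 6, 8 and 6 counts with LME-sEVs. The part of these other cells in the results was not tested. In bulk RNA, fewer cells of a type and less RNA per cell cannot be told apart.

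Of the 19 synthetase transcripts tested, 4 fell with LME-sEVs: Tars, Cars, Hars and Rars, which charge tRNAs with threonine, cysteine, histidine and arginine. No synthetase rose in this fit, and DESeq2's test and limma-voom called none higher either. Some other settings, given below, called Vars higher. Of the 19 genes, 17 had a log2 fold change below 0 (16 with scaling by library size only, where Aars moved to 0.02), and the median was -0.12 over a range of -0.41 to 0.28. The 4 of 19 that fell stand beside 5.21% of all genes, and the 0 of 19 that rose beside 3.75%. An unadjusted p under 0.05 was seen in 9 of 19, beside 22.7% of all genes (2864 of 12623). The LME-sEV libraries lay entirely below the HCME-sEV libraries in 6 of the 19 (Cars, Gars, Hars, Kars, Rars and Tars), as they did in 10.8% of all genes. They lay entirely above in 2 (Qars and Vars), as in 9.49% of all genes. Averaged over the 19 genes, the log2 level relative to the mean of all libraries was 0.09 in HCME-sEV libraries 1, 2 and 4 and -0.02 in library 3, and it was -0.05, -0.10 and -0.09 in LME-sEV libraries 1 to 3. HCME-sEV library 3 therefore lay closer to the LME-sEV libraries than to its own group in this average, although the groups did not overlap.

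**Figure D1:**
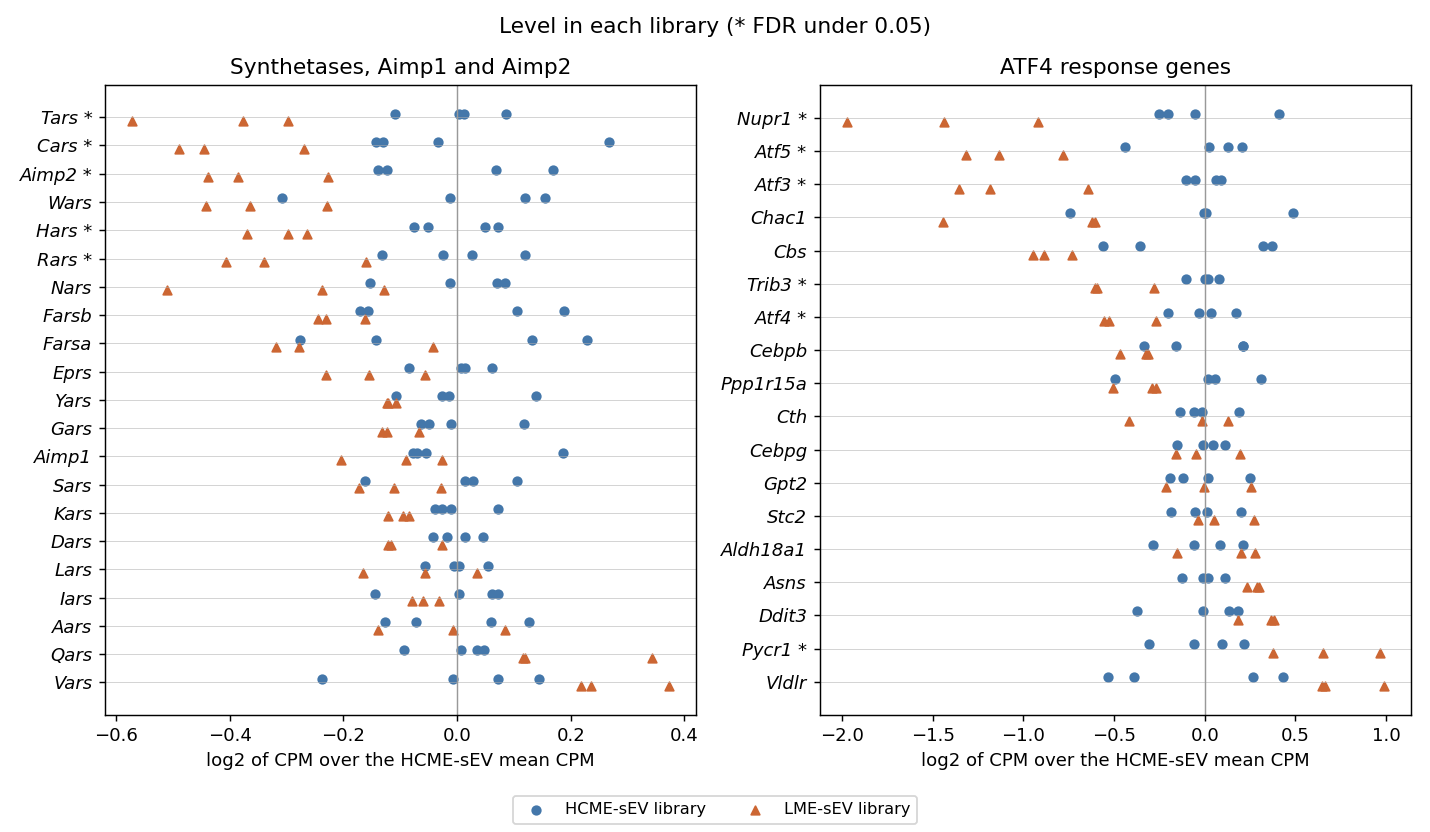
Level of each of the 39 genes in each library, as log2 of its CPM over the mean CPM of the HCME-sEV libraries (x axis, log2 scale; the scale differs between the panels), for the synthetases with Aimp1 and Aimp2 (left) and the ATF4 response genes (right). Circles are the 4 HCME-sEV libraries, triangles the 3 LME-sEV libraries, and an asterisk marks an FDR under 0.05; most synthetase triangles lie left of 0, while the ATF4 response genes run from Nupr1, lowest, to Vldlr, highest.

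Tars had the lowest FDR of the synthetases. The gene lies at chr15:11382301-11399665 on the minus strand of GRCm38, and its level was 225, 223, 206 and 236 CPM in HCME-sEV libraries 1 to 4 and 171, 150 and 181 CPM in LME-sEV libraries 1 to 3. All LME-sEV libraries were below all HCME-sEV libraries. With a mean of 223 ± 12 CPM (SD, n = 4) for HCME-sEVs and of 167 ± 16 CPM (SD, n = 3) for LME-sEVs, Tars fell by 24.8% (log2 fold change -0.41, SE 0.084, FDR = 0.0043).

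Cars (chr7:143557230-143600090, minus strand) was at 52.0, 64.1, 48.3 and 48.7 CPM with HCME-sEVs and at 37.9, 39.1 and 44.2 CPM with LME-sEVs. The groups did not overlap, with HCME-sEV library 2 standing above its group. Cars fell by 23.8% (log2 fold change -0.39, SE 0.12, FDR = 0.0374). Hars (chr18:36766528-36783205, minus strand) had 133, 135, 124 and 122 CPM with HCME-sEVs and 107, 99.3 and 104 CPM with LME-sEVs. Its groups, relative to their means, were the most narrowly spread of the 4, without overlap, and it fell by 19.4% (log2 fold change -0.31, SE 0.082, FDR = 0.0209). Rars (chr11:35808381-35834506, minus strand), whose enzyme belongs to the multisynthetase complex, had 218, 197, 183 and 204 CPM with HCME-sEVs and 180, 151 and 159 CPM with LME-sEVs. The nearest libraries of the 2 groups, 183 and 180 CPM, were almost level. Rars fell by 18.8% (log2 fold change -0.30, SE 0.085, FDR = 0.0303).

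These calls rested on few libraries. None of the 4 synthetases was called without LME-sEV library 2; Tars then had an FDR of 0.0527. Cars was also lost without HCME-sEV library 2, LME-sEV library 1 or LME-sEV library 3 and with DESeq2's test (FDR = 0.0574), Hars without HCME-sEV library 2 or LME-sEV library 3, and Rars without HCME-sEV library 1, 2 or 4 or LME-sEV library 3. The log2 fold change kept its sign each time, from -0.47 to -0.34 for Tars and from -0.37 to -0.25 for Rars. Exons of Cars and Hars overlap those of Gm15580 and Hars2 on the opposite strand, and the strand used for counting is not given in the sources used here, so their counts may be shared.

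Of the synthetases that did not pass the test, Nars (asparagine) was nearest, at 525, 495, 449 and 530 CPM against 457, 351 and 424 CPM. LME-sEV library 1 lay within the HCME-sEV range (log2 fold change -0.28, SE 0.089, FDR = 0.0505). Nars was called lower with DESeq2's test (FDR = 0.0385), limma-voom, a replicate block (the library number as a term of the fit) or no count minimum, and without HCME-sEV library 3 or LME-sEV library 1. Vars and Qars, for valine and glutamine, were the only synthetases with a log2 fold change above 0. Vars was at 110, 116, 93.6 and 122 CPM with HCME-sEVs and at 130, 143 and 128 CPM with LME-sEVs (log2 fold change 0.28, SE 0.092, FDR = 0.0665). Qars was at 131, 134, 122 and 135 CPM against 142, 166 and 142 CPM (log2 fold change 0.20, SE 0.083, FDR = 0.159). In both, every LME-sEV library was above every HCME-sEV library, and neither passed the test. Vars was called higher with the replicate block (FDR = 0.00839), with upper quartile or library size scaling and without HCME-sEV library 4.

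For the other synthetases the log2 fold change lay between -0.34 and -0.02. It was -0.34 (FDR = 0.0964) for Wars (tryptophan) and -0.21 for both subunit genes of the phenylalanine enzyme, Farsa (FDR = 0.241) and Farsb (FDR = 0.165). Eprs, the fused enzyme for glutamate and proline, was at -0.15 (FDR = 0.245). The remaining genes, Yars, Gars, Sars, Kars, Dars, Lars, Iars and Aars, lay between -0.12 and -0.02 with FDR of 0.424 or more. Counts of Aars and Iars are uncertain, because Aars shares exon sequence at its own locus with Exosc6 on the same strand, and the 3′ end of Iars is nearly identical to that of Gm4849. Exons of Farsb and Yars overlap Sgpp2 and C77080 on the opposite strand.

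Of the scaffolds, Aimp2 fell and Aimp1 did not pass the test. Aimp2 (chr5:143902704-143909847, minus strand) was at 82.9, 67.7, 67.0 and 77.3 CPM with HCME-sEVs and at 63.0, 54.4 and 56.4 CPM with LME-sEVs, without overlap. It fell by 21.7% (log2 fold change -0.35, SE 0.10, FDR = 0.0339), and the call was lost without HCME-sEV library 1 or 4 or LME-sEV library 2 or 3. Its exons overlap those of Eif2ak1 on the opposite strand. Aimp1 was at 290, 242, 243 and 246 CPM against 250, 240 and 221 CPM, so that the groups overlapped (log2 fold change -0.11, FDR = 0.49). Exons of Aimp1 overlap those of Tbck on the opposite strand. Over the 10 genes of the multisynthetase complex that were tested, Rars, Aimp2 and Eef1e1 fell (3 of 10, beside 5.21% of all genes), none rose and the median log2 fold change was -0.10. Eef1e1, the smallest scaffold, was at 78.5 ± 15.8 CPM with HCME-sEVs and 56.4 ± 5.88 CPM with LME-sEVs (SD, n = 4 and 3; log2 fold change -0.47, FDR = 0.0279), with overlapping groups.

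The ATF4 response did not move as a block. The transcription factor genes Atf4, Atf3 and Atf5 fell, as did Trib3 and Nupr1, while Pycr1, an enzyme of proline synthesis, rose. Of the 18 genes, 5 fell, beside 5.21% of all genes, and 1 rose, beside 3.75%; 10 had an unadjusted p under 0.05, beside 22.7%. The log2 fold changes were below 0 in 10 and above 0 in 8, with a median of -0.21 and a range of -1.40 to 0.77. The LME-sEV libraries were entirely below in 6 of 18 (Atf4, Atf3, Atf5, Trib3, Nupr1 and Cbs), where 10.8% of all genes were, and entirely above in 3 (Asns, Vldlr and Pycr1), where 9.49% were. The median lies between Cth (-0.08) and Ppp1r15a (-0.35), far apart, so it moved with the genes and libraries included. It was -0.07 with edgeR's filterByExpr and -0.03 with at least 5 counts asked of every library, which test fewer genes of low count. It was -0.12 without LME-sEV library 2 and -0.29 without LME-sEV library 3. It was -0.01 without HCME-sEV library 3, a fit in which Cbs was also below the count minimum.

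**Figure D2:**
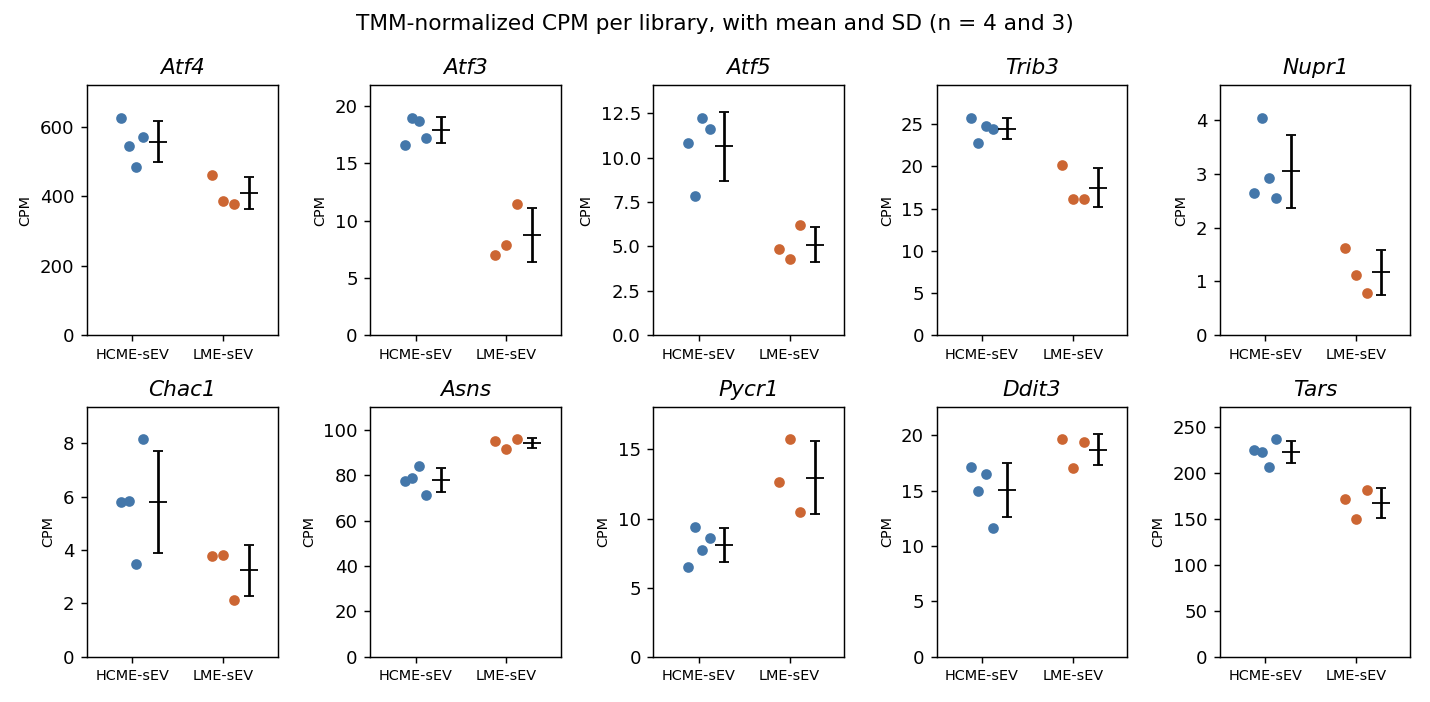
TMM-normalized CPM (y axis, linear and starting at 0, own scale in each panel) of 9 ATF4 response genes and Tars in the 4 HCME-sEV libraries (blue) and the 3 LME-sEV libraries (orange), each point a library, with the mean and SD beside the points. Atf4, Atf3, Atf5, Trib3, Nupr1 and Tars are lower with LME-sEVs without overlap, Asns and Pycr1 are higher without overlap, and Chac1 and Ddit3 overlap.

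Atf4 itself (chr15:80255184-80257541, plus strand), the regulator of the response, was at 627, 546, 485 and 571 CPM in HCME-sEV libraries 1 to 4 and at 462, 386 and 378 CPM in LME-sEV libraries 1 to 3. The highest LME-sEV library was below the lowest HCME-sEV library. HCME-sEVs gave a mean of 557 ± 59 CPM (SD, n = 4), LME-sEVs one of 409 ± 46 CPM (SD, n = 3), and Atf4 fell by 26.7% (log2 fold change -0.45, SE 0.091, FDR = 0.0043). The call was kept without any single library, with log2 fold changes of -0.54 to -0.39.

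Atf3, a stress-induced factor and a target of ATF4, lies at chr1:191170296-191218039 on the minus strand. Its level was 16.6, 19.0, 18.7 and 17.2 CPM with HCME-sEVs and 7.0, 7.87 and 11.4 CPM with LME-sEVs, with a wide gap between the groups. It fell by 49.9% (log2 fold change -1.0, SE 0.18, FDR = 0.00174) and was called without any single library. Its unrounded log2 fold change was just short of the cutoff of 1 that the study sets for differential expression. Atf5 (chr7:44812256-44816658, minus strand), like Atf4 controlled at translation, was at 10.8, 7.86, 12.3 and 11.6 CPM against 4.84, 4.27 and 6.20 CPM, again without overlap. It fell by 51.4% (log2 fold change -1.04, SE 0.23, FDR = 0.00723); without LME-sEV library 2 its FDR was 0.0592. Exons of Atf5 overlap Il4i1 and Nup62 on the opposite strand.

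Trib3, a pseudokinase that feeds back on ATF4, lies at chr2:152337422-152344032 on the minus strand. It was at 25.8, 22.8, 24.8 and 24.4 CPM with HCME-sEVs and at 20.2, 16.2 and 16.1 CPM with LME-sEVs, without overlap and with LME-sEV library 1 the nearest to the controls. Trib3 fell by 29.1% (log2 fold change -0.50, SE 0.14, FDR = 0.0268), and the call was lost without HCME-sEV library 1 or 4 or LME-sEV library 2 or 3 and with DESeq2's test (FDR = 0.0705). Nupr1 (chr7:126623249-126630861, minus strand), a small stress-induced chromatin protein, had only 11, 16, 11 and 11 counts with HCME-sEVs and 6, 5 and 4 counts with LME-sEVs. These counts did not overlap, and Nupr1 fell by 62.1% (log2 fold change -1.40, SE 0.43, FDR = 0.0468). That call is fragile, since it was lost in each of the 7 fits that left out 1 library, with FDR up to 0.222, and also with limma-voom, with the replicate block, with scaling by the upper quartile or library size only and with no count minimum. With the added cutoff of 1 on the log2 fold change, Atf5 and Nupr1 were called lower and no gene of the list higher, where 0.658% of all genes were lower and 0.626% higher.

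Pycr1 (chr11:120635712-120643769, minus strand), which makes proline in mitochondria, was the only gene of the list that rose. It was at 6.50, 9.38, 7.74 and 8.61 CPM with HCME-sEVs and at 12.6, 15.7 and 10.5 CPM with LME-sEVs. All LME-sEV libraries were above all HCME-sEV libraries, and Pycr1 rose by 59.8% (log2 fold change 0.68, SE 0.20, FDR = 0.0389). The call was lost without any of HCME-sEV libraries 1, 3 and 4 or LME-sEV libraries 1 and 2, and with DESeq2's test (FDR = 0.0869). Aldh18a1, which acts earlier in proline synthesis, had a log2 fold change of 0.13 (FDR = 0.645).

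Asns (chr6:7675169-7693254, minus strand), which makes asparagine and is a classic target of ATF4, was at 77.3, 78.8, 84.0 and 71.5 CPM with HCME-sEVs and at 95.2, 91.5 and 95.8 CPM with LME-sEVs. Every LME-sEV library was above every HCME-sEV library, yet the gene just missed the threshold (log2 fold change 0.27, SE 0.087, FDR = 0.0520). It was called higher without HCME-sEV library 3, with upper quartile or library size scaling, with filterByExpr and with at least 5 counts in every library, but not with DESeq2's size factors or test, limma-voom, the replicate block or no count minimum. Ddit3 (chr10:127290774-127296288, plus strand), which encodes CHOP, a factor linked to cell death under lasting stress, was at 17.1, 15.0, 16.5 and 11.6 CPM against 19.6, 17.1 and 19.4 CPM. LME-sEV library 2 was level with HCME-sEV library 1, and Ddit3 did not pass the test (log2 fold change 0.32, SE 0.16, FDR = 0.24). Exons of Ddit3 overlap Mars and Gm4189 on the opposite strand, and 2 gene entries carry the symbol, so its counts may be shared. Chac1 (chr2:119351229-119354381, plus strand), which degrades glutathione, was at 5.78, 5.83, 3.47 and 8.15 CPM against 3.77, 3.82 and 2.13 CPM. HCME-sEV library 3 was below 2 of the LME-sEV libraries, and the gene did not pass the test (log2 fold change -0.88, SE 0.33, FDR = 0.106) except without that library.

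The other ATF4 response genes did not pass the test. Among regulators, the log2 fold change was -0.36 for Cebpb (FDR = 0.169) and 0.01 for Cebpg (FDR = 0.966), C/EBP partners of ATF4, and -0.35 for Ppp1r15a (FDR = 0.341), the phosphatase subunit GADD34 that reverses eIF2 phosphorylation. Exons of Cebpg overlap those of Gm44836 on the same strand and of Gm45095 on the opposite strand, so its counts may be shared. Exons of Cebpb and Ppp1r15a overlap Tmem189 and Tulp2 on the opposite strand. Vldlr, a lipoprotein receptor, was at 1.69, 3.29, 2.93 and 1.86 CPM against 4.84, 3.82 and 3.88 CPM, without overlap (log2 fold change 0.77, SE 0.34, FDR = 0.178). The amino acid enzymes Gpt2 (alanine; log2 fold change 0.04) and Cth (cysteine; -0.08) had FDR of 0.929 and 0.778. Cbs, the enzyme before Cth, had between 3 and 8 counts in every library (log2 fold change -0.83, SE 0.52, FDR = 0.367). With 8, 4, 7 and 5 counts against 3, 4 and 4 counts, the groups of Cbs tied before scaling and were apart only in CPM. Stc2, a secreted glycoprotein, was at 0.09 (FDR = 0.857).

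The pathway upstream of ATF4 was described with 15 tested genes for eIF2, its kinases and its regulators. Of these, 4 fell, beside 5.21% of all genes, and 1 rose, beside 3.75%, with a median log2 fold change of -0.10. Eif2ak3, which encodes PERK, the kinase that responds to stress in the endoplasmic reticulum, rose from 61, 83, 92 and 75 counts to 104, 132 and 173 counts, without overlap. Its mean CPM was 19.4 ± 4.28 with HCME-sEVs and 30.4 ± 2.85 with LME-sEVs (SD, n = 4 and 3; log2 fold change 0.66, SE 0.15, FDR = 0.00929). Eif2s1, which encodes the alpha subunit that these kinases phosphorylate, fell from 221 ± 16.5 to 176 ± 13.7 CPM (log2 fold change -0.33, FDR = 0.0170). Eif2s2, for the beta subunit (log2 fold change -0.31, FDR = 0.0357), and Eif2b4, of the nucleotide exchange factor eIF2B (log2 fold change -0.33, FDR = 0.0281), also fell. Eif2ak2, which encodes the RNA-activated kinase PKR, fell (log2 fold change -0.45, FDR = 0.0479) with overlapping groups. The other two kinases, named here whatever their result, were Eif2ak4, for the amino acid sensor GCN2, at -0.03 (FDR = 0.919), and Eif2ak1, for HRI, at -0.05 (FDR = 0.808). RNA levels do not measure the activity of these kinases.

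**Figure D3:**
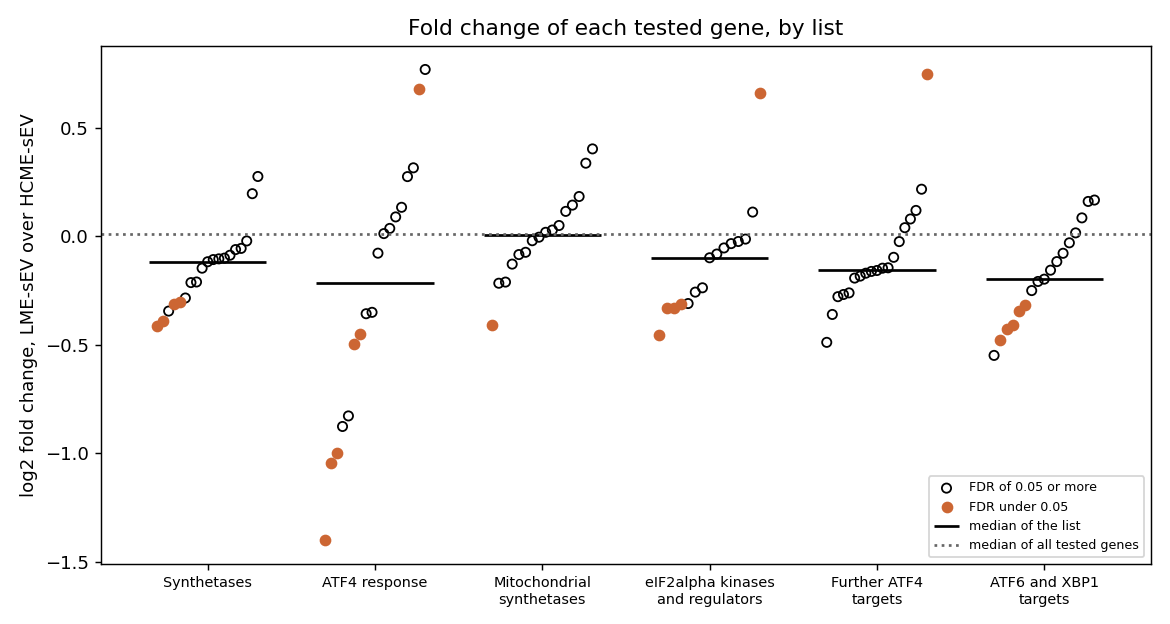
Log2 fold change, LME-sEV over HCME-sEV (y axis), of every tested gene of 6 lists (x axis; within a list, genes are ordered by value), with filled points for an FDR under 0.05, a bar at the median of each list and a dotted line at 0.01, the median of all tested genes. The median is -0.12 for the synthetases, -0.21 for the ATF4 response, 0.01 for the mitochondrial synthetases, -0.10 for the eIF2alpha list, -0.16 for further ATF4 targets and -0.20 for ATF6 and XBP1 targets.

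The listed mitochondrial synthetases, those with a nuclear gene of their own, were spread evenly. Gars and Kars have no separate mitochondrial gene in that list and are counted with the cytosolic genes. Of 16 tested, 8 had a log2 fold change below 0 and 8 above, with a median of 0.01. Yars2, the mitochondrial tyrosine enzyme, fell from 53.5 ± 6.71 to 40.1 ± 1.41 CPM (SD, n = 4 and 3; log2 fold change -0.41, FDR = 0.0249), and no other gene of that list passed the test (1 of 16 lower, beside 5.21% of all genes). The difference between the mitochondrial and the cytosolic genes was not tested.

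A list of 22 further ATF4 targets, for serine and glycine synthesis, amino acid transport and related steps, held 19 genes that could be tested. None was called lower, beside 5.21% of all genes, and 1 was called higher, beside 3.75%. The log2 fold change was below 0 in 14, with a median of -0.16, and 8 had an unadjusted p under 0.05, beside 22.7% of all genes. In CPM, 3 were entirely lower and 1 entirely higher with LME-sEVs, beside 10.8% and 9.49% of all genes. Jdp2, a transcription factor that pairs with AP-1 and ATF proteins, rose from 20.2 ± 4.31 to 33.6 ± 4.86 CPM (log2 fold change 0.75, SE 0.15, FDR = 0.00398). The amino acid transporter gene Slc7a5, named here whatever its result, did not pass the test (log2 fold change -0.36, SE 0.11, FDR = 0.0529). Its groups overlapped. The secreted stress factor Gdf15 reached at most 2 counts, and Fgf21 and Adm2 were at 0 counts in every library.

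The ATF6 and XBP1 branches are the parts of the unfolded protein response that act beside PERK. Of 17 tested genes, 5 fell, beside 5.21% of all genes, and none rose, beside 3.75%; the median log2 fold change was -0.20 and 8 had an unadjusted p under 0.05, beside 22.7%. Hspa5, which encodes the chaperone BiP, had 4915, 4025, 3518 and 4574 counts with HCME-sEVs and 3311, 3244 and 3929 counts with LME-sEVs. After normalization its groups did not overlap, and it fell from 1052 ± 103 to 794 ± 85.5 CPM (log2 fold change -0.41, SE 0.088, FDR = 0.0064). Hsp90b1, for the chaperone GRP94, fell from 692 ± 19.9 to 545 ± 34.0 CPM (log2 fold change -0.34, FDR = 0.00567). Xbp1 (log2 fold change -0.43, FDR = 0.0194), the disulfide isomerase gene Pdia4 (-0.48, FDR = 0.0135) and Calr, for calreticulin (-0.32, FDR = 0.0135), fell as well. Eif2ak3 and these chaperones therefore moved in opposite directions in the same libraries.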

How the data were processed

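RNA of CD8+ T cells was sequenced from transcript 3′ ends (QuantSeq FWD with UMIs) in 7 libraries, 4 with HCME-sEVs and 3 with LME-sEVs, grouped by their labels. The authors deposited whole-number counts per gene symbol. The submitters' processing notes and the methods name cutadapt 2.10, STAR 2.5.3a, UMI-tools 1.0.0, featureCounts of Subread 2.0.0 and GRCm38. The annotation release and strand setting are not given in the sources used here. Which 3′ ends are annotated can therefore shift a gene's level.

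A mean count of 5 or more over the libraries was required, which left 12623 of 55367 genes. LME-sEV and HCME-sEV libraries were compared by the quasi-likelihood test of edgeR 4.0.16 (glmQLFit, glmQLFTest; TMM scaling, no covariate) in R 4.3.3, with Benjamini-Hochberg adjustment over these genes. SE is the log2 fold change divided by the square root of F. Counts of 3 mark the floor, which covers counting error only. The test was run on simulated data with larger changes than those of the listed genes. That run does not show how well changes as small as most of those called here are found. Alternatives were DESeq2 1.42.0 (size factors, test), limma-voom (limma 3.58.1), upper quartile or library size scaling, other count minimums, a replicate block and leaving out each library.

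The genes and lists were chosen with earlier results of these data known. Values in every library were given for genes of the list with an FDR under 0.05 and for Atf4, Atf3, Atf5, Ddit3, Trib3, Chac1 and Asns; values of further genes were added after they were seen. From related lists, at most 5 genes by smallest FDR were named, and GCN2, HRI, Slc7a5 and the genes at or near 0 counts were added. Positions are of GENCODE vM21 on GRCm38; 3′ ends (300 bases) were compared with blast 2.17.0 at 95% identity over at least 200 bases. Promoter windows are RefSeq's. Scripts ran in Python 3.11.15 with numpy 2.4.6, pandas 2.3.3 and matplotlib 3.10.9.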

Additional observations from a re-analysis of the deposited data

Results flagged for a closer look

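Among the 39 genes, Aimp1 had an HCME-sEV library far from the other 3 of its group. Library 1, at 290 CPM, lay above libraries 2 to 4 at 242 to 246 CPM, and the gap took 0.921 of the group's range, beyond Dixon's 95% critical value for 4 libraries. Chance flags about 1 in 20 genes, which is 1.95 of the 39 looked at.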

How the results depend on the processing

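Of all genes, between 391 (without LME-sEV library 2) and 1305 (without HCME-sEV library 3) were called when 1 library was left out, against 1131 with all 7, and 458 without LME-sEV library 3. The same fits gave 0 to 5 lower and 0 to 1 higher synthetases, 2 to 5 lower and 0 to 1 higher ATF4 response genes, and a median of the ATF4 response of -0.29 to -0.011 (the latter without Cbs, not tested in that fit). No synthetase was called without LME-sEV library 2. The synthetase median stayed below 0 in every setting tried, from -0.15 to -0.07.

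With scaling by library size only, 2 synthetases fell (Tars and Hars) and 1 (Vars) rose, Aimp2 was not called, 2 ATF4 response genes rose (Pycr1 and Asns), Aars was at 0.023 instead of -0.022, and 56.9% of all calls were higher, against 41.8% with TMM. The upper quartile gave 1 synthetase (Vars) and 2 ATF4 response genes higher. With filterByExpr or with at least 5 counts in every library, 2 ATF4 response genes rose, and the median of the ATF4 response was -0.071 and -0.025; the first tested 38 of the 39 genes and the last 37. DESeq2's test called 884 genes in all, 4 synthetases lower (Nars in place of Cars), 3 ATF4 response genes lower (without Trib3) and 0 higher (without Pycr1), and gave no adjusted p for Nupr1 and Cbs.

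Deviations from the group mean correlated only weakly between libraries with the same number (0.0721, 0.155 and 0.0268). LME-sEV library 1 correlated about as well with HCME-sEV library 3 (0.0803) as with HCME-sEV library 1 (0.0721). The labels do not say whether equal numbers share a day or an animal. Whether the numbers pair the libraries therefore cannot be told from these values. With the replicate block, 1454 genes were called, with 5 lower and 1 higher synthetases and 5 lower and 1 higher ATF4 response genes. Nars and Vars were gained among the synthetases, and Cebpb replaced Nupr1 among the lower ATF4 response genes. Aars was at 0.0034, Cebpg at -0.0015 and Gpt2 at -0.013. Without 1 library, log2 fold changes near 0 changed sign in Aars (-0.067 to 0.038), Cebpg (-0.098 to 0.089), Gpt2 (-0.11 to 0.15) and Cth (-0.21 to 0.065). The cause of these changes was not tested. Atf4 and Atf3 were called in each of the 7 fits that left out 1 library. Nupr1, Cbs, Chac1 and Vldlr are limited by depth.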

Other observations

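Set against Atf4 in the same library, Asns, Ddit3 and Pycr1 stood higher with LME-sEVs. Ratios of the other genes to Atf4 are not given, so such a rise cannot be called particular to these genes. The ratios shown were chosen after the values were seen and are given with no test. There were 0.123, 0.144, 0.173 and 0.125 Asns counts for each Atf4 count in HCME-sEV libraries 1 to 4, and 0.206, 0.237 and 0.253 in LME-sEV libraries 1 to 3. For Ddit3 the ratios were 0.0273, 0.0274, 0.0341 and 0.0204 with HCME-sEVs and 0.0425, 0.0442 and 0.0512 with LME-sEVs. Ddit3 counts may be shared with genes on the opposite strand. For Pycr1 they were 0.0104, 0.0172, 0.0160 and 0.0151 against 0.0273, 0.0407 and 0.0277. The groups did not overlap in any of the 3, and Atf4 itself was lower with LME-sEVs, which by itself raises each ratio.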
